A study of Mus musculus with 6 samples.

Results

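The treated-only peaks are the regions of the treated peak list that share no base with any peak of the DMSO list. In BrITL, a method that maps DNA breaks, broken ends are tagged with biotin-16-ddUTP and the tagged DNA is captured and sequenced, so a peak is a place where tagged ends gathered. All cells were passage-immortalized mouse embryonic fibroblasts of genotype ATR+/- that expressed Bcl-xL, an anti-apoptotic protein, so the DMSO cells also carried only 1 intact copy of the checkpoint gene. Treated cells had 18 h of 1 µM ATR-45, an ATR inhibitor, together with 0.2 µM aphidicolin, which slows replicative DNA polymerases, and control cells had DMSO for 18 h. Treated cells gave 2 captured samples and 1 input, as did DMSO cells. The 2 lists used here were each pooled over a condition, so no value has a replicate error. The labelled cell type was not checked, as the lists hold no expression values. The treated list held 491 peaks and the DMSO list 6444. After leaving out treated peaks with a summit on chromosome 15 from 60000001 to 62300000 (mm10), a dense region of both lists, 284 treated-only peaks remained (57.8% of the treated list, 95% exact Clopper-Pearson interval 53.3 to 62.3%) and 166 treated peaks that overlapped a DMSO peak, called shared peaks below. The region itself held another 7 treated peaks with no DMSO peak, with folds from 2.74 to 3.91. Intervals cover counting error only, and every test compares regions within these pooled lists, not the conditions.

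ATR is the kinase that answers single-stranded DNA at slowed replication forks. It holds back new origins, stabilises forks and delays mitosis. When ATR is inhibited while polymerases are slowed, forks can be cleaved or collapse and leave DNA ends. Such ends are known from replication-sensitive places, including long genes of common fragile sites and repeats that form unusual DNA structures. Whether the treated-only peaks lie at repeats was not analysed here, since no genome sequence was used.

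Of 32851 promoter windows of RefSeq (GRCm38.p6, the assembly of mm10), 1 was touched by a treated-only peak. Counted by peaks, 1 of 284 treated-only peaks touched a window, against 97 of 166 shared peaks. Shared peaks overlap DMSO peaks by rule, and 62.0% of DMSO peaks outside the dense region lay at gene ends. The overlap rule thus shapes this contrast. The window touched by the treated-only peak belongs to Gapdhs, which encodes the sperm form of the glycolytic enzyme GAPDH. The peak spanned chr7:30739651-30739947 with a fold of 4.73, and its summit lay inside the gene, 4.90 kb from its 5′ end and 88.4 kb from the nearest DMSO peak. The first 60 bases of the window (chr7:30739598-30739657, minus strand, 5′ to 3′), which is that of an inner start of the gene, are shown because 7 of them, in capitals, lie in the peak, and no other window held bases of a treated-only peak. The peak was named after its values were seen.
Gapdhs: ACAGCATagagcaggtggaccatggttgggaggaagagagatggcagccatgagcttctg

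Treated-only peaks were narrow and mostly weak. They covered 136.5 kb in all, with widths from 98 to 2128 bp and a median of 456 bp, against a median of 491.5 bp for shared peaks. The authors' fold enrichment over the local background ran from 2.92 to 14.2 with a median of 5.30, against a median of 5.18 for shared peaks. The pull-down fragments at the summit, recovered from the authors' fold and p values, ran from 35 to 106 with a median of 43, against a median of 40 for shared peaks. Of the 284 peaks, 59 had 35 to 37 fragments, next to the lowest count in either list, which was 35. These strengths are a description, as the peaks were chosen from the same list.

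**Figure D1:**
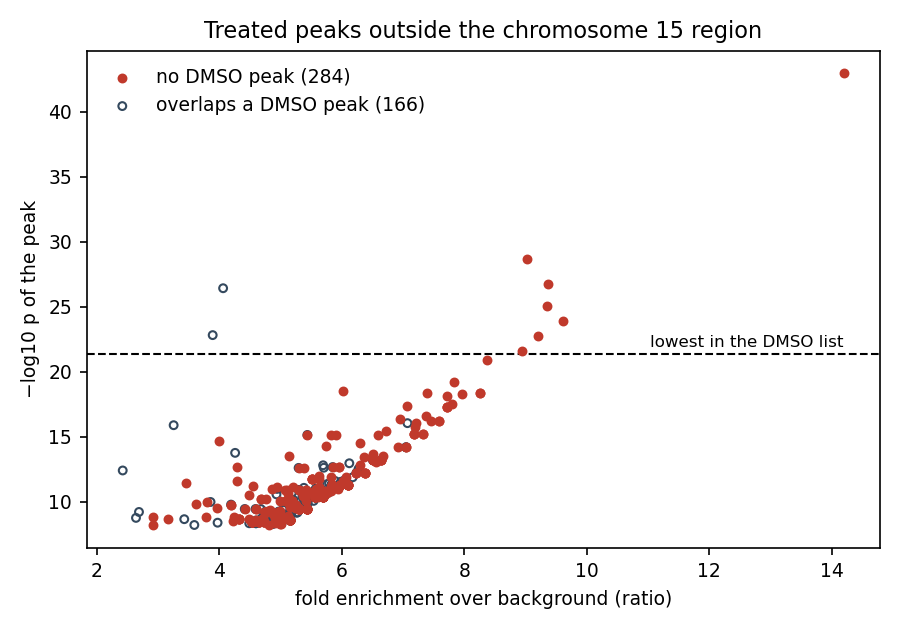
Each point is 1 treated peak outside the chromosome 15 region, with its fold enrichment (ratio, horizontal) and its −log10 p (vertical), filled for treated-only peaks and open for shared peaks. The dashed line is the lowest −log10 p of the DMSO list, 21.3, and 7 treated-only and 2 shared peaks lie above it.

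The lists ended at different strengths, so absence from the DMSO list does not show absence of signal. The lowest −log10 p was 8.21 among treated-only peaks and 21.3 in the DMSO list. At the genome background, 35 fragments gave a fold of 5.03 in the treated list and 8.80 in the DMSO list. Only 7 treated-only peaks (2.46%, interval 0.997 to 5.01%) reached the lowest −log10 p of the DMSO list, and 7 reached a fold of 8.80. The other 277 lay below every −log10 p of the DMSO list. In summit fragments the lists overlapped, as DMSO peaks had 35 to 204 with a median of 49, against a median of 43 for treated-only peaks. After the caller's scaling each pull-down fragment counted as 0.439 in the treated list and 0.805 in the DMSO list. The treated-only peak nearest to a DMSO peak lay 691 bp away, inside Acacb, which encodes an acetyl-CoA carboxylase (fold 4.75). It was followed by peaks 1.75 kb away at Nop56 (39 fragments), 2.03 kb away on chromosome 8 (3.81), 2.87 kb away near Tra2a, a splicing regulator (5.19), and 3.26 kb away in Tia1, an RNA-binding protein gene (6.11). Among shared peaks 165 of 166 lay wholly inside DMSO peaks, which were wider, with a median width of 2855 bp in their list. The remaining one had 98.2% of its bases covered (107 of 109 bp, chromosome 8, 129207493 to 129207601, fold 5.43). The median distance from a treated-only peak to a DMSO peak was 138 kb, and 20 of 284 lay within 10 kb.

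The 7 strongest treated-only peaks were those above the lowest −log10 p of the DMSO list. Of the 7, 0 had the summit inside a gene. The strongest spanned 37699859 to 37701986 on chromosome 13, 77.6 kb from Rreb1, a zinc-finger transcription factor gene, with 106 fragments at its summit, a fold of 14.2 and a −log10 p of 42.95. On chromosome 14 a peak 8.46 kb from Gata4, which encodes a transcription factor of heart and endoderm, had 69 fragments (fold 9.61), and one 382 kb from Dach1, a developmental transcription factor gene, had 66 (9.21). The Dach1 peak was 115 bp wide and 3055 kb from any DMSO peak. On chromosome 6 a peak 6.00 kb from Gdf3, a TGF-beta family ligand gene, had 83 fragments (9.37), and one 1.02 kb from the 5′ end of Gp9, a platelet glycoprotein gene, had 76 (9.36). The remaining 2 lay 11.2 kb from Tmem130 on chromosome 5 with 95 fragments (9.03) and 29.05 kb from Gm34768 on chromosome 2 with 64 (8.94). The distances to the nearest DMSO peak were 35.02 kb (Gp9), 40.9 kb (Tmem130), 84.4 kb (Gdf3) and 100.2 kb or more for the other 4.

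The next 13 by fold had folds between 7.46 and 8.37, and 5 of them had the summit in a protein-coding gene. Among them were peaks in Fhad1 (fold 8.37), in Ttll9, a tubulin ligase-like gene (7.83), in Ccser1, which spans a common fragile site (7.73), and in Etnk1, an ethanolamine kinase gene (7.71). Outside coding genes, peaks lay 2.51 kb from Ptgr2, a prostaglandin reductase gene (8.27), 28.02 kb from Gm34768 (8.27), 11.1 kb from Mtcl1, a microtubule crosslinking factor gene (7.80), and 27.4 kb from Fshb, the gene of the hormone-specific subunit of FSH (7.96). Others lay 75.9 kb from Cylc1, a gene of the sperm head cytoskeleton (7.73), in the non-coding Gm38988 26.4 kb from Slc7a10, an amino acid transporter gene (7.73), 158.6 kb from Plppr4 (7.59) and 32.4 kb from the zinc-finger gene Zfp236 (7.59).

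Many treated-only peaks came as close neighbours. Peaks with edges within 2 kb of each other were merged to 1 site, which gave 231 treated-only sites and 154 shared sites, and no site mixed both. Of the 231 sites, 46 held more than 1 peak (19.9%, interval 14.96 to 25.7%), 39 of them 2 peaks and 7 of them 3. Of the 154 shared sites 10 did (6.49%, interval 3.16 to 11.6%). The odds ratio was 3.58 (two-sided Fisher's exact test, p = 0.000193, adjusted over 6 tests p = 0.000289). By the same Fisher's exact test it was 2.31 with the chromosome 15 region kept in (adjusted p = 0.00830, and 0.000236 to 0.0227 over its alternatives). Shared sites lie by rule in DMSO peaks, and sites at gene ends were kept in both classes. The overlap rule and the number of peaks therefore cannot be told apart in this test. In 42 of 46 sites the closest neighbours carried consecutive call numbers, and in 4 there was 1 number between them. Read as a count of calls, consecutive numbers leave no unlisted treated call between neighbours. The gap between the peaks had a median of 452 bp and ran from 88 to 1851 bp. Whether neighbours are separate sites or 1 site called as several peaks was not tested.

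Summits of neighbouring peaks tended to lie toward the gap between them. In the 46 closest pairs, 1 per site, 65 of 92 summits lay in the part of their peak that faced the other peak (70.7%, interval 60.2 to 79.7%), 33 of 46 on the left and 32 of 46 on the right (exact two-sided binomial test, p = 9.26e-05, adjusted p = 0.000185). The 2 summits of a pair share a site. Counted by pair, both faced the gap in 22, neither did in 3 and 1 did in 21 (exact binomial test of 22 against 3, p = 0.000157, adjusted p = 0.000289). The higher fragment count of a pair was 1.16 times the lower in the median pair and 1.95 times at most. Counts of all treated-only peaks lay in a narrow range, with quartiles of 39 and 50, and the ratio was not compared with that of peaks that are not neighbours. In the pair near Gm34768, peaks with 59 and 64 fragments were 570 bp apart and both summits faced the gap. Near Tmem130 the peaks had 92 and 95 fragments and a gap of 380 bp, but unlike folds of 3.45 and 9.03, as the background term, the coverage the caller expected from the input, was 11 at the first and 3.73 at the second.

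**Figure D2:**
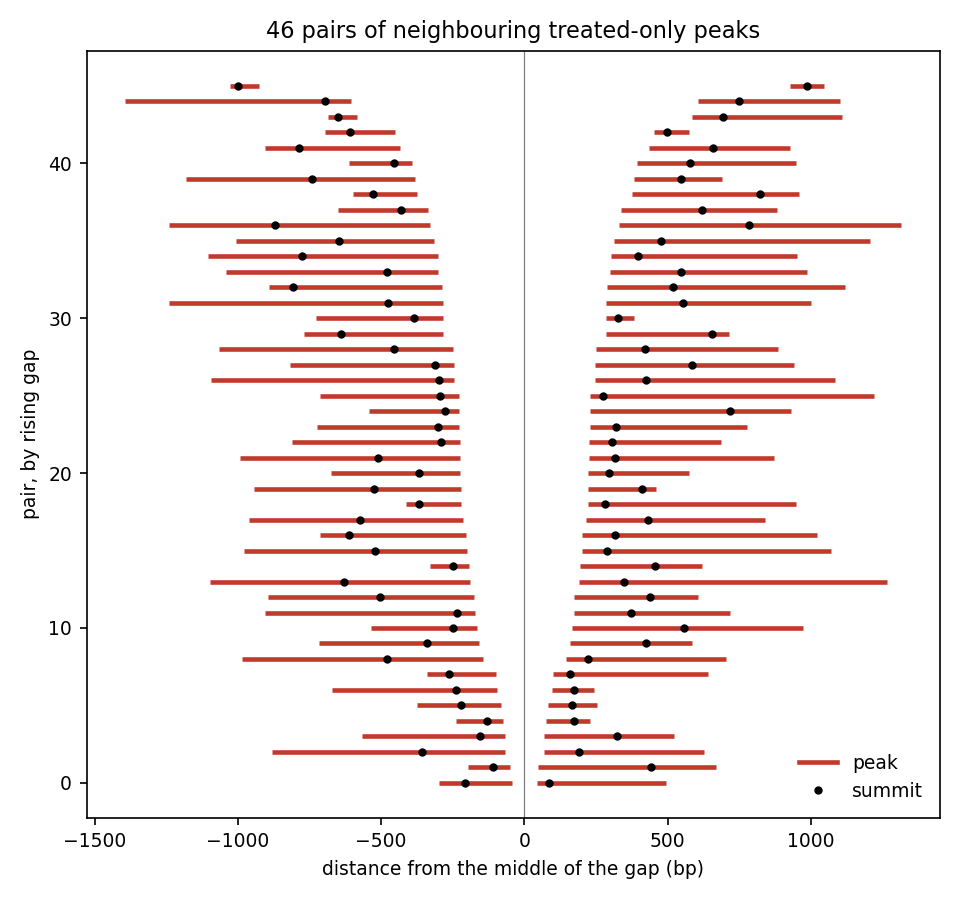
Each row is 1 of the 46 sites with several treated-only peaks, showing the closest pair of peaks as bars and their summits as dots, placed by distance in bp from the middle of the gap and ordered by rising gap. Gaps run from 88 to 1851 bp, and 65 of 92 summits lie in the part of the bar nearer the middle.

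Sites of several peaks were also stronger. Their highest fold had a median of 6.11 (n = 46), against 5.30 for sites of 1 peak (n = 185), a difference of 0.809 (permutation test of medians, two-sided, adjusted p = 0.000150). A site with more peaks has more chances of a high value. With the mean fold of its peaks in place of the highest the median of sites with several peaks was 5.70, the difference from sites of 1 peak was 0.405 and the adjusted p by the same permutation test was 0.0112. A peak was counted only if it entered the list, so strength and number of peaks are not independent by either measure. The 7 sites of 3 peaks were in Sephs1, a selenophosphate synthetase gene (folds 5.46, 4.33 and 5.64), in Ttll9 (4.24, 4.68 and 7.83), 8.83 to 10.2 kb from Surf6, a nucleolar protein gene (4.33, 6.68 and 6.02), beside Rgs22 (6.38, 5.30 and 4.19), 85.2 to 86.4 kb from Rnf32 (4.64, 5.03 and 5.85), beside Gp9 (4.72, 9.36 and 4.73) and 49.99 to 53.1 kb from Spin4 on X (4.01, 7.19 and 5.97). In the Gp9 site the middle peak had 76 fragments and its neighbours 39 and 37. In the Sephs1 site the 3 peaks were near equal, with 44, 47 and 44 fragments.

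Most treated-only peaks had their summit more than 1 kb from a protein-coding gene end. Their summits had a median distance of 20.4 kb to the closest protein-coding gene end, with 122 of 284 (43.0%, interval 37.1 to 48.9%) between 10 and 50 kb and 74 (26.1%) between 1 and 10 kb. Within 1 kb lay 10 (3.52%, interval 1.70 to 6.38%), against 121 of 166 shared peaks (72.9%) and 62.0% of DMSO peaks. The DMSO list is thus itself rich in gene ends, so the overlap rule puts gene ends among shared peaks, and no test is given. What share of the genome lies within 1 kb of a gene end was not computed, so 3.52% cannot be read as avoidance. The fold did not follow the distance. Its median was 5.23 within 1 kb and ran from 5.30 to 5.70 in the bins farther out.

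**Figure D3:**
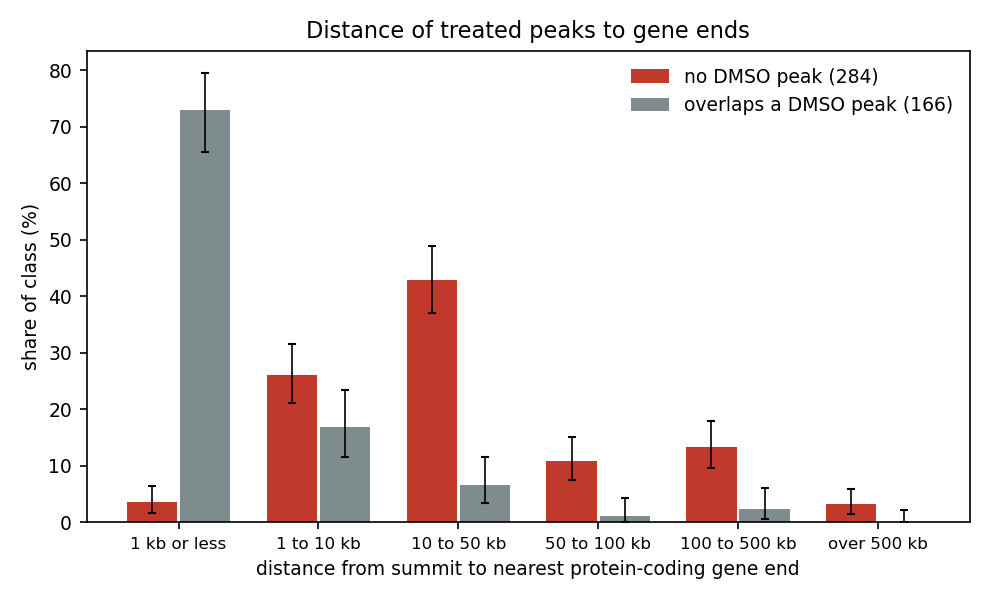
Share of each class of treated peaks (%, vertical) by the distance in kb between the summit and the closest protein-coding gene end, for the 284 treated-only peaks (red) and the 166 shared peaks (grey), with 95% exact intervals. Treated-only peaks are most frequent at 10 to 50 kb (43.0%), and shared peaks at 1 kb or less (72.9%).

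The 10 treated-only peaks at gene ends were spread over 9 genes. The strand was known for 6 of them, and 5 lay at the 3′ end of the gene. Of 103 shared peaks at a gene end of known strand 5 lay at the 3′ end (4.85%), and of 3049 DMSO peaks 112 did (3.67%). As the overlap rule takes 5′ ends out of the treated-only class, no test of this difference is given. The 5 peaks at 3′ ends were beside Nop56, which encodes a core protein of box C/D snoRNPs (39 fragments), Eef1b2, a translation elongation factor gene (5.03), Eif4a2, an RNA helicase gene of translation initiation (5.16), Haus2, a gene of the augmin complex of the spindle (5.84), and Cp, which encodes the copper carrier ceruloplasmin (5.41). The Nop56 peak lay 45 bp beyond the gene end and inside the neighbouring Idh3b, and the Eif4a2 peak lay 332 bp beyond its end, inside Rfc4, which encodes a subunit of the replication clamp loader. The only one at a known 5′ end belonged to the Gp9 site, 52 bp from the gene (4.73). The remaining 4 were at Rgs22 (6.38 and 5.30), Fmo1, a monooxygenase gene (5.82), and Wfdc13 (4.53).

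Inside genes lay 119 of 284 treated-only summits (41.9%, interval 36.1 to 47.9%), 98 of them in protein-coding genes and 21 only in non-coding genes or pseudogenes. How much of the genome lies inside genes was not computed, so this share is a description without a baseline. Away from gene ends 90 of 222 treated-only sites were inside a gene (40.5%), against 27 of 41 shared sites (65.9%), which gave an odds ratio of 0.354 (two-sided, adjusted p = 0.00414 by Fisher's exact test). Shared sites lie by rule in DMSO peaks, so their positions are those of the DMSO list, and the overlap rule and the gene position cannot be told apart in this test. The call was lost with a gene end window of 5 kb (Fisher's exact test, odds ratio 0.707, adjusted p = 0.620), at −log10 q of at least 5 (0.828, adjusted p = 0.7997) and with the chromosome 15 region kept in (0.690, adjusted p = 0.242). Its adjusted p-values ranged over its alternatives between 0.000945 and 0.7997. The 81 protein-coding host genes had a median length of 57.9 kb, against 17.2 kb for all 21887 protein-coding genes of the table. A long gene offers more room for a summit, so the lengths are given as a description. Of the 99 host genes 83 held no DMSO summit (83.8%), against 92.8% of all genes and 86.8% of protein-coding genes in the table, and the peaks themselves were chosen for sharing no base with DMSO peaks.

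In all, 81 of 21887 protein-coding genes (0.370%) and 99 of 49943 genes of any kind (0.198%) held a treated-only summit. Of 30 listed genes of common fragile sites, 1 did, a number too small to set against that share. This was Ccser1 (1203 kb), with 2 peaks at 1 site (folds 7.73 and 5.30) 486 to 487 kb from its 3′ end. Genes longer than 300 kb held 9 summits, in 6 of 590 such genes of the table (1.02%), which are long by choice. Besides Ccser1 these were Dlc1, a tumour suppressor gene (2 summits, folds 6.11 and 5.70), Aff2, a gene of a fragile site on X in humans (5.57 and 4.59), Nckap5 (5.43), Sugct (5.57) and Ncald, a calcium sensor gene (5.77). Of 25 genes listed for the ATR pathway and fork protection (among them Atr, Chek1, Timeless, Smarcal1, Brca2 and Mcm2), 0 held a treated-only summit. The list is short and does not cover replication genes as a whole. Outside it, summits lay in Rfc4 (5.16) and in Fancd2, a gene of the Fanconi anaemia pathway (4.64), both named here after their values were seen.

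The genes with more than 1 treated-only summit numbered 22, and in each of them the summits belonged to 1 site. Besides Sephs1, Ttll9, Ccser1, Dlc1 and Aff2 they included Fhad1 with the overlapping Gm42338 (8.37 and 6.37), Lhfpl1 (7.19 and 5.70), Gm38988 (7.73 and 5.03), Wnt5b, a Wnt ligand gene (6.59 and 5.21), and Iqub (6.11 and 5.30). Lower folds, from 5.96 down to 3.63, were found in Bicdl2, Cep85, Pced1b, Hps3, Eps15l1, Grap2, the intestinal stem cell receptor gene Lgr5, the non-coding Gm31340 and 3632454L22Rik, and the pseudogene Gm31518. Ccser1, Wnt5b and Dlc1 also held 1 DMSO summit each.

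Chromosome counts of treated-only sites are a description. X held 34 of 231 sites (14.7%, interval 10.4 to 19.96%), chromosome 8 held 27 and chromosome 2 held 25. The 6 chromosomes with the most sites (X, 8, 2, 5, 4 and 6) together held 148 sites (64.1%) on 34.7% of the length, and 35.6% of DMSO peaks. As they were picked by their number of sites, a high share is partly fixed by that choice. Per 100 Mb there were 20.9 sites on chromosome 8, 19.9 on X, 14.7 on 17 and 14.5 on 5, against 8.53 over all chromosomes, 0.804 on 9 and 1.69 on 12. Of the 27 sites on chromosome 8, 7 lay in 1 stretch of 743 kb with background terms from 3 to 12, which raises its rate. Chromosome 19 had no treated-only site, although it held 10 shared peaks and 398.7 DMSO peaks per 100 Mb. The number of copies of each chromosome in these cells was not analysed here.

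**Figure D4:**
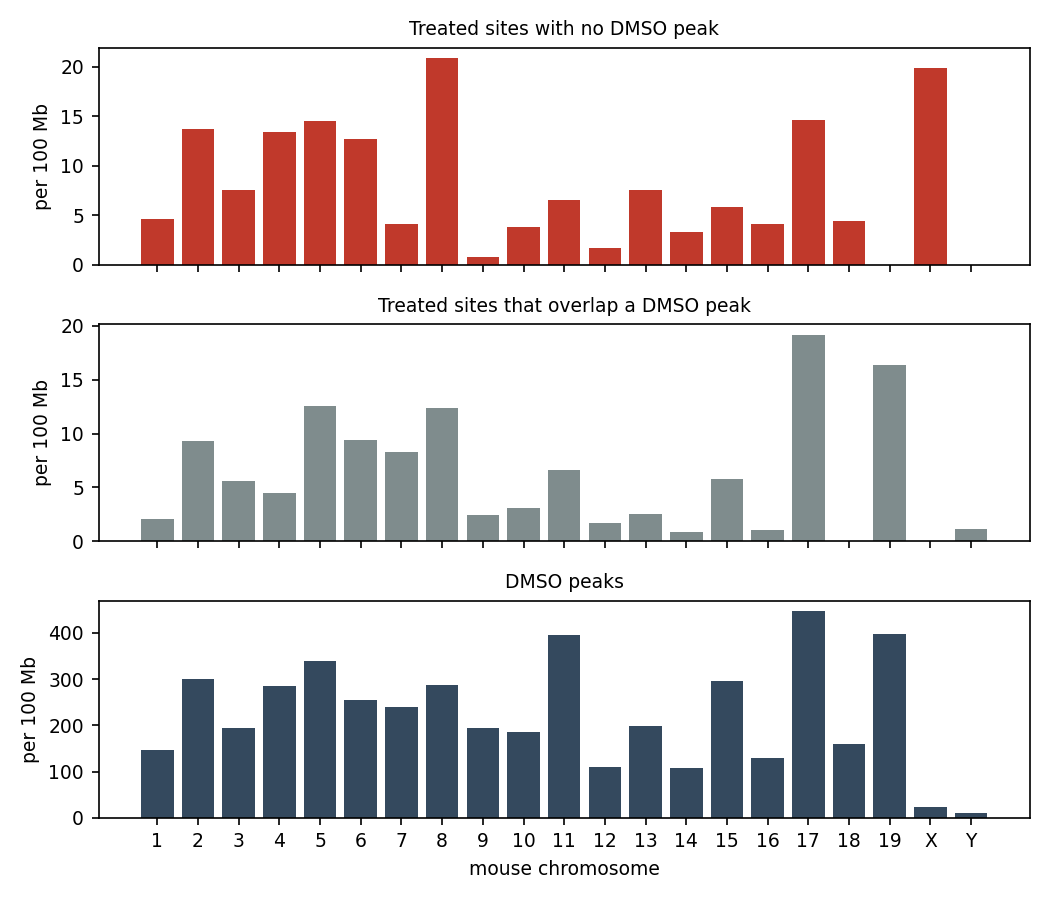
Sites or peaks per 100 Mb of each mouse chromosome, with treated-only sites above, shared sites in the middle and DMSO peaks below, each without the dense region of chromosome 15. Chromosomes 8 and X carry 20.9 and 19.9 treated-only sites per 100 Mb, while X carries no shared site and 24.0 DMSO peaks per 100 Mb.

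X held 44 treated-only peaks and 0 of 166 shared peaks (upper limit of the interval 2.198%). By sites these were 34 of 231 against 0 of 154, a difference of 14.7 percentage points (Fisher's exact test, two-sided, adjusted p = 6.94e-08). The DMSO list held 41 of its 6444 peaks on X, so a treated peak there had little to overlap. The overlap rule thus largely fixed the outcome of this test in advance. Its p-value is no evidence about X, and the overlap rule and the chromosome cannot be told apart. The nearest DMSO peak lay 1002 kb away in the median on X and 101 kb on autosomes. Of the 44 peaks 15 were inside a gene (34.1%) and 0 were within 1 kb of a coding gene end. The highest fold of sites on X had a median of 5.37 (n = 34), against 5.43 on autosomes (n = 197), a difference of -0.0674 that did not pass the test (permutation test, adjusted p = 0.775). Sites of more than 1 peak made up 9 of 34 on X (26.5%) and 37 of 197 on autosomes (18.8%), with overlapping intervals. Among the 5 strongest peaks on X were those near Cylc1 (7.73), in Cldn34-ps (7.32), and 52.0 and 42.9 kb from Spin4 (7.19 each), a fold that the peak in Lhfpl1 shared.

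The background term was at its genome value of 2.26 for 128 of 284 peaks and had a median of 2.41. It was at least 2 times the genome value at 18 peaks (6.34%), against 13 of 166 shared peaks (7.83%). Of these 18, 5 lay in 1 stretch of chromosome 8, where 7 sites of 1 peak each spanned 19773663 to 20516833 (743 kb). Folds there ran from 2.92 to 6.03 and background terms from 3 to 12. Named summits there lay inside 2610005L07Rik, a transcribed pseudogene (84 fragments, fold 2.92), Gm40468 (80 fragments, 6.03) and 9530057J20Rik (48 fragments, 4.42). Near-identical copies could share reads among such genes, and the sources used here do not say how the authors placed reads with several matches. The highest term, 13.0, was at a peak 12.2 kb from Speer4d on chromosome 5, with 91 fragments and a fold of 2.93. Chromosome 4 and X held 3 such peaks each. The DMSO list had terms of up to 25.1 times its own genome value.

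Peak names carried running numbers that grew with position and skipped values, reaching 5400 in the treated list and 64322 in the DMSO list. Taking them as a count of all calls made, the numbers skipped between neighbouring DMSO peaks were read as unlisted calls. The strength of these calls is not known. For 280 treated-only peaks with a DMSO peak on each side, the span between these DMSO peaks had a median of 922 kb and held a median of 19 unlisted calls, from 0 to 124. Over the 200 distinct spans there were 11.6 unlisted calls per Mb, against 22.7 per Mb over whole chromosomes. The spans hold no listed DMSO peak by rule, and long spans weigh most in the first rate. Around peaks on X the median span was 6885 kb and the median number of unlisted calls 66. Around peaks on autosomes these medians were 563 kb and 15, so the pooled rate does not describe a typical peak. The position of an unlisted call within its span is not known. For nearly all treated-only peaks an unlisted DMSO call at the same place can thus be neither shown nor dismissed.

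For 3 treated-only peaks the span held 0 skipped numbers. These peaks, and the 8 that follow, were named after their values were seen. They lay in Kctd5 (chromosome 17, 24060212 to 24060568, 46 fragments, fold 5.13), in Ube2r2, a ubiquitin-conjugating enzyme gene (chromosome 4, 41176432 to 41176616, 38 fragments, 5.13), and in Ccnd3, which encodes cyclin D3 (chromosome 17, 47517601 to 47518089, 39 fragments, 4.60). The spans there were 35.5, 136.1 and 79.3 kb. A further 8 peaks had 1 unlisted call in the span. The strongest of them by fold was in Mapk14, which encodes the stress kinase p38 alpha (65 fragments, fold 7.39, span 105.8 kb). The others were 44.5 kb from Tent2 (5.30), in Fmo1 (5.82), and at 5 places of the stretch of chromosome 8 described above. Of these 11 peaks 0 were among the 20 of highest fold, and a DMSO level below the caller's limit was not measured.

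**Figure D5:**
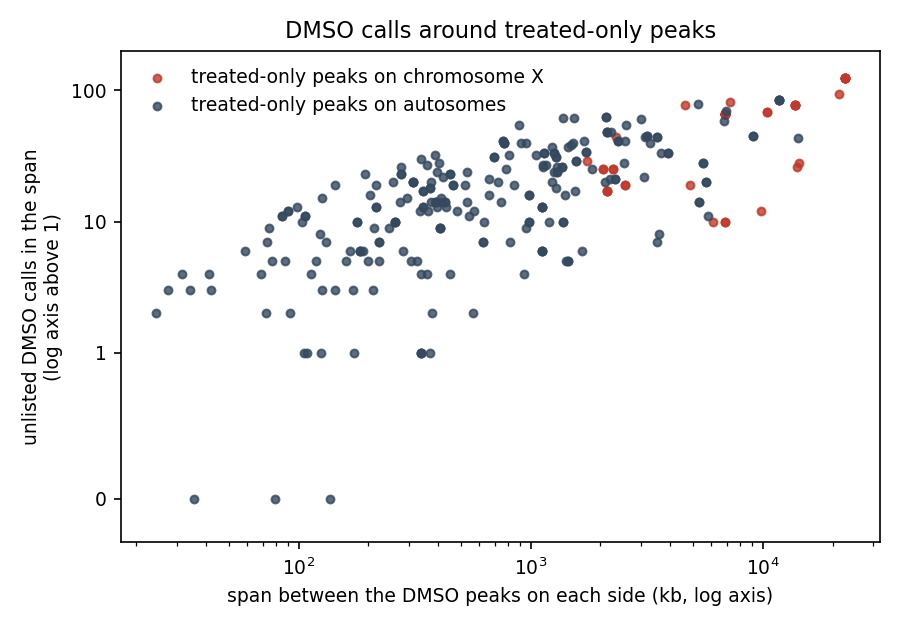
Each point is 1 of 280 treated-only peaks, with the span between the DMSO peaks on each side (kb, log axis) and the number of unlisted DMSO calls in that span (log axis above 1). The 3 points at 0 are the peaks in Kctd5, Ube2r2 and Ccnd3, and peaks on X (red) lie at a median span of 6885 kb, against 563 kb on autosomes.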

How the data were processed

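BrITL pull-downs and inputs of treated and DMSO cells were summarised by the authors as 1 pooled narrowPeak list per condition, per the peak names, which set all pull-downs against all inputs. The submitters' processing notes name mm10, MACS2 2.1.0, STAR 2.5.2a, bcl2fastq 2.17.1.14, Picard 1.141 and SAMtools 0.1.19. The peak names hold the word idr, but the sources used here do not say by what rule peaks were kept for the lists. The deposited score is the whole part of 10 times the −log10 p. The authors' fold enrichment is a ratio at the summit, and the deposited −log10 p and −log10 q values are the caller's. From these, pull-down fragments and the background term were recovered by inverting the caller's formulas (whole fragments within 0.02). This gave a solution for 100% of peaks, with more than 1 for 8 treated-only peaks, where the nearest to a whole number was taken. On 281 simulated treated peaks, made with the same formulas and scaling, 100% were right. This checks the inversion but not whether the formulas hold for the deposited values. The files hold no read totals.

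Overlaps needed 1 base. Sites merged peaks within 2 kb. Genes came from RefSeq (GRCm38.p6, 49943 genes); strand came from its promoter windows. Fisher's exact, exact binomial and permutation tests (100000 resamples) were adjusted by Benjamini-Hochberg over 6 tests. Named were the 20 peaks of highest fold, the 5 on X, peaks at gene ends, sites of 3 peaks, genes with 2 summits, the 5 nearest to DMSO peaks, and members of the gene lists; 1 gene that the rule names is not reported here. Peaks named for their background term, their span of DMSO calls or their DMSO threshold were chosen after their values were seen. The peak class and gene lists were chosen with earlier results of these data known. The contrasts of treated-only and shared sites by peak number and by chromosome X were already known from an earlier analysis of these lists. Planned tests of tandem repeats need a genome and were not run. Tools were pandas 2.3.3, SciPy 1.17.1 and NumPy 2.4.6 under Python 3.11.15.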

Additional observations from a re-analysis of the deposited data

How the results depend on the processing

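Of 61 values recomputed under alternatives, 34 with a test did not reverse or cross its threshold, and 21 counts or shares with no test stayed within their limits. Of the 34, 3 were the difference in fold between X and autosomes at exactly 0, which has no direction. At −log10 q of at least 5, 137 sites were left and 14.6% of them held more than 1 peak. There the difference in fold between X and autosomes turned to 0.145 (permutation test, adjusted p = 0.567, and 0.567 to 1 over its alternatives), and it passed the threshold in neither form. The gene body comparison lost its call at −log10 q of at least 5 (odds ratio 0.828), with a gene end window of 5 kb (0.707) and with the chromosome 15 region kept in (0.690); the cause was not tested. Keeping that region, dropping peaks of high background, using the mean fold per site and counting summits by pair were chosen after seeing the data. All alternatives for tandem repeats were not run. No paired analysis was possible because each list is pooled over the samples of its condition, and no replicate could be left out for the same reason. The files hold no read totals, but the recovered genome background bears on depth. It was 5.14 pull-down fragments in the treated list and 2.88 in the DMSO list. What this difference does to the lists was not tested.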
